A study of Homo sapiens with 8 samples.

Results

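Keratins are the intermediate filament proteins of epithelial cells. They fall into acidic type I and basic type II proteins, and a filament forms only when a type I chain pairs with a type II chain, so epithelia usually express matched pairs. KRT8 with KRT18, joined by KRT7 and KRT19, make up the filaments of simple epithelia such as the lung alveolus. KRT5, KRT14 and KRT15 mark basal cells of layered epithelia, and KRT6A, KRT6B, KRT6C, KRT16 and KRT17 are the stress keratins that skin and airway epithelium raise after injury.

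The keratin genes were taken by name, as every symbol made of KRT, a number and at most a final A, B or C, which gave 53 of the 19158 genes measured. They were followed in A549, an established epithelial cell line from a human lung adenocarcinoma with a wild-type genotype label. The 4 untreated wells were compared with 4 wells given 1 µM dexamethasone, a synthetic glucocorticoid, for 48 h, with 1 RNA library per well and the same batch label throughout. The replicates, numbered 1, 3, 4 and 5 in both groups, were all of 1 cell line. They are called wells here, but the sample labels do not say what set them apart. The p-values therefore measure the spread between these replicates and not between donors. The p-values and log2 fold changes come from limma on log2(FPKM + 1) over all 12161 genes with at least 0.5 FPKM in at least 4 libraries, adjusted by Benjamini-Hochberg and called at an adjusted p under 0.05. FPKM is the fragment count divided by transcript length and by the total of the library, so levels of different genes can be set side by side.

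Of the 53 keratins, 24 were listed at 0 in all 8 libraries, 10 stayed under 0.1 FPKM and 14 passed the filter and were tested. The estimated depth was 24980000 to 28660000 fragments per library, at which 1 fragment is worth about 0.0166 FPKM for KRT6A. The treatment labels fitted the glucocorticoid response genes FKBP5, TSC22D3 and PER1, whose lowest dexamethasone value was above the highest untreated value in each case. Both libraries numbered 5 stood apart from the rest: their mitochondrial-genome share of FPKM was 1.74% and 2.55%, against 3.45% to 9.44% in the other 6, and their scaling factors were 0.824 and 0.928, against 1.02 to 1.09. The part of this in the results was not tested. The epithelial label was met only in part: CDH1, the epithelial cadherin, was at 4.90 to 8.52 FPKM in untreated and 16.7 to 19.7 FPKM in treated libraries (called higher). CLDN7, an epithelial tight junction protein, was at 0 to 0.292 and 2.06 to 3.19 FPKM (log2 fold change 1.76, called higher). It passed the filter through its dexamethasone libraries only. EPCAM, an epithelial surface protein, was at 0.221 to 0.765 FPKM in untreated and 0.140 to 0.383 FPKM in treated libraries and was not tested. Of the same list, ESRP1 did not exceed 0.0819 FPKM. CDH2, another cadherin, was at 9.47 to 15.3 and 13.6 to 15.3 FPKM (log2 fold change 0.12, not called). Of 4 leukocyte markers, PTPRC and CD3E were listed at 0 in every library, and the list summed to 3.65 to 4.88 FPKM in untreated and 1.81 to 2.24 FPKM in treated libraries, nearly all of it CD68, a lysosomal protein of macrophages that was called lower (log2 fold change -0.72). The 4 endothelial markers together did not exceed 0.182 FPKM.

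After dexamethasone single keratins changed in both directions. KRT6A, a stress keratin, went from almost nothing to several FPKM, and KRT34, a hair keratin, rose from a low level. KRT19, KRT80, KRT15 and KRT10 fell. The most abundant keratins, KRT7, KRT8, KRT81 and KRT18, did not pass the test. In all, 6 of the 14 tested keratins (42.9%) were called, where 26.7% of all tested genes were. There were 2 calls higher, against 12.4% of all tested genes, and 4 lower, against 14.3%. The median log2 fold change was -0.01 over the 14 keratins and 0.01 over all tested genes. The difference between these shares was not tested. The filter asked for 4 libraries, the size of 1 group, so a gene high in 1 group alone could enter. KRT6A entered through its dexamethasone libraries only and KRT15 through its untreated libraries only. KRT34 reached 0.5 FPKM in untreated replicate 5 alone of its group, at 0.513 FPKM, so its entry too depended on its dexamethasone libraries. Of the partner genes named below, NES and SOX2 entered through untreated libraries only and TGM1 through dexamethasone libraries only. RNA was measured in bulk, so fewer cells with a transcript and less of it per cell cannot be told apart.

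**Figure D1:**
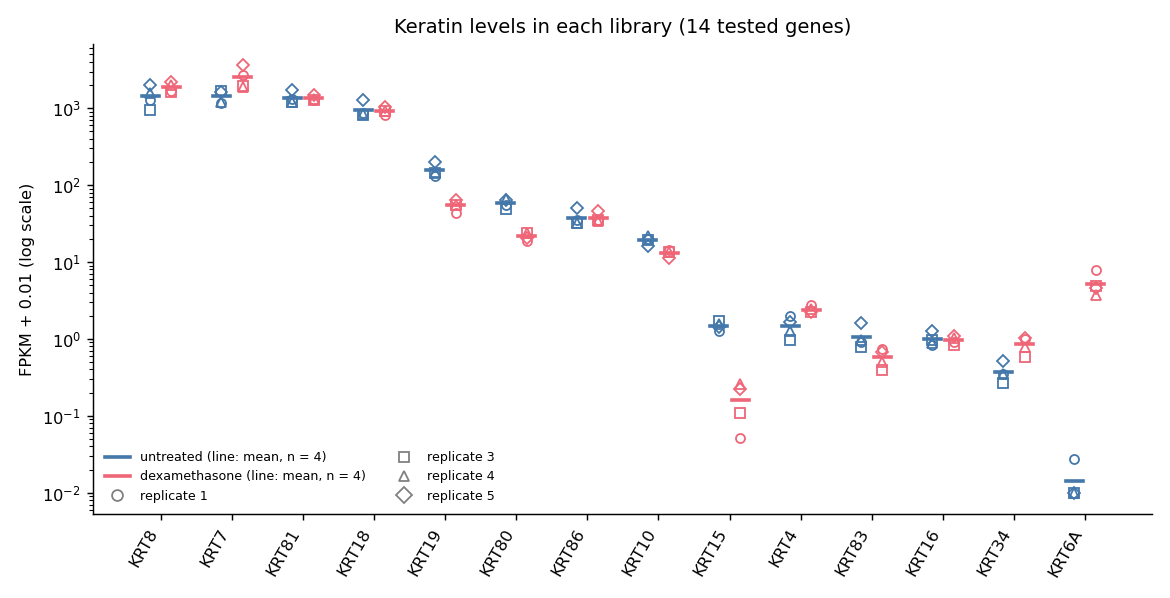
Deposited level of the 14 tested keratins in each library, as FPKM + 0.01 on a log axis, with untreated libraries in blue, dexamethasone libraries in red, 1 symbol per replicate number and a line at each group mean (n = 4). KRT8, KRT7, KRT81 and KRT18 sit at or above 805 FPKM in every library, KRT6A lies at the bottom in untreated libraries and between 3.69 and 7.78 FPKM after dexamethasone.

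KRT6A was the keratin switched on, defined as every untreated library under 0.5 FPKM and every dexamethasone library at or above it. KRT6A (ENSG00000205420, GRCh38 chromosome 12, 52487174 to 52493257, minus strand, protein coding) was at 0.0171 FPKM in untreated replicate 1, which is about 1 fragment, and was listed at 0 in untreated replicates 3, 4 and 5. After dexamethasone it was at 7.78, 4.88, 3.69 and 4.55 FPKM in replicates 1, 3, 4 and 5. All 4 treated wells thus held KRT6A at a level that no untreated well approached. The difference on the log2(FPKM + 1) scale was 2.59 (limma, SE 0.168, adjusted p = 7.53e-06), and no linear fold is given because 3 untreated values are 0. On this scale it ranked 55 among the 12161 tested genes. With a pseudocount of 0.1 the log2 difference was 5.62, also called. In all genes measured, 0.522% met the same definition of switched on.

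No other stress keratin was called. KRT6B and KRT6C, its near-identical neighbours, were listed at 0 in all untreated libraries and in dexamethasone replicates 1, 4 and 5. In dexamethasone replicate 3 KRT6B was at 0.0437 FPKM and KRT6C at 0.180 FPKM. KRT6A shares 35.2% of the 50-base stretches of its longest transcript with KRT6C and 28.6% with KRT6B, and the authors' treatment of reads that match several genes is not given in the sources used here. KRT16, a type I partner of the KRT6 proteins, was at 0.821, 0.969, 0.880 and 1.24 FPKM in untreated wells 1, 3, 4 and 5. Its dexamethasone values of 0.896, 0.824, 1.02 and 1.07 FPKM lay within that span. The log2 fold change of KRT16 was -0.02, with a 95% interval of -0.31 to 0.26 (limma adjusted p = 0.903). KRT17, another type I partner, did not exceed 0.0751 FPKM in any library and was not tested.

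Of the 3 basal keratins, KRT15 was the 1 high enough to test, and it fell. KRT15 (ENSG00000171346, chromosome 17, 41513743 to 41522529, minus strand), a type I keratin of basal and progenitor cells, was at 1.25, 1.69, 1.55 and 1.43 FPKM in untreated wells 1, 3, 4 and 5. After dexamethasone it was at 0.0414, 0.0988, 0.252 and 0.216 FPKM. The groups were far apart, with the highest treated well at 0.252 FPKM and the lowest untreated well at 1.25 FPKM. KRT15 fell by 1.11 on the log2(FPKM + 1) scale (limma, SE 0.0998, adjusted p = 4.49e-05), and the treated mean was 0.103 times the untreated mean. With a pseudocount of 0.1 in place of 1 the log2 fold change was -2.73, still called. It was the 1 keratin switched off at 0.5 FPKM, where 0.762% of all genes were.

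The other basal keratins were near the limit of detection. KRT14, the usual type I chain of basal cells, had no signal in untreated wells and reached 0.0498 FPKM in dexamethasone replicate 1. KRT5, its type II partner, was listed at 0 in untreated replicates 1, 3 and 4 and was at 0.122 FPKM in untreated replicate 5. It was above 0 in all 4 dexamethasone libraries, at 0.0370 to 0.145 FPKM, which overlaps the untreated range and corresponds to only a few fragments. TP63, the transcription factor of basal cells, was at 0.781 to 1.37 FPKM in untreated and 0.266 to 0.710 FPKM in treated libraries.

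The simple keratins split. KRT19 (ENSG00000171345, chromosome 17, 41523617 to 41528308, minus strand), a type I chain of simple and ductal epithelia, was at 131, 142, 149 and 200 FPKM in untreated wells 1, 3, 4 and 5. In dexamethasone replicates 1, 3, 4 and 5 it was at 44, 55.3, 55.5 and 64.2 FPKM. Every treated well was below every untreated well. The log2 fold change of KRT19 was -1.49 (limma, SE 0.234, adjusted p = 0.00140), and the treated mean was 0.351 times the untreated mean.

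KRT7 (ENSG00000135480, chromosome 12, 52232520 to 52252186, plus strand), a type II chain of simple and glandular epithelia, moved in the opposite direction without passing the test. Its untreated values were 1165, 1689, 1209 and 1633 FPKM in replicates 1, 3, 4 and 5. Its dexamethasone values were 2727, 1944, 1895 and 3608 FPKM. The groups did not overlap, but the treated wells spread widely, and the lowest treated well lay close above the highest untreated one. The log2 fold change was 0.80 (SE 0.291, 95% interval 0.15 to 1.46, limma adjusted p = 0.0697). KRT7 was called at 0.74 without both libraries numbered 5 (limma adjusted p = 0.0121), at 0.95 without untreated replicate 5 alone (limma adjusted p = 0.0222) and at 1.06 with the GC trend of each library removed (limma adjusted p = 0.00396). With no scaling between libraries it was called at 0.81 (limma adjusted p = 0.0328). With a replicate term in the fit it was called at 0.80 (limma adjusted p = 0.00503). It was not called when any other single library was left out, at 0.58 to 0.94 (limma adjusted p = 0.0743 to 0.164). The lowest of these, 0.58, came without dexamethasone replicate 5. By level KRT7 ranked 10 to 28 among all genes in untreated libraries and 2 to 12 in treated ones. KRT7-AS, a long noncoding RNA gene of the opposite strand, overlaps KRT7 by 2401 bases.

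KRT8 and KRT18, the type II and type I pair of simple epithelia, were tested as separate genes. KRT8 (ENSG00000170421, chromosome 12, 52897187 to 52949954, minus strand) was at 1294, 957, 1579 and 1984 FPKM in untreated wells 1, 3, 4 and 5 and at 1698, 1624, 1994 and 2195 FPKM after dexamethasone. The groups overlapped. Its log2 fold change was 0.41 (SE 0.297, 95% interval -0.26 to 1.07, limma adjusted p = 0.334), and it was called when untreated replicate 5 was left out, at 0.65 (limma adjusted p = 0.0386), and when both libraries numbered 5 were, at 0.54 (limma adjusted p = 0.0465). Without untreated replicate 3, the lowest well, it was 0.18 (limma adjusted p = 0.643).

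KRT18 (ENSG00000111057, chromosome 12, 52948871 to 52952901, plus strand) was at 872, 805, 836 and 1270 FPKM in untreated libraries and at 819, 917, 907 and 1034 FPKM in treated ones. Untreated replicate 5 was the high value, and the other 3 untreated wells lay at or below 872 FPKM. The log2 fold change of KRT18 was -0.02 (SE 0.251, 95% interval -0.59 to 0.54, limma adjusted p = 0.954), and it was 0.20 without untreated replicate 5 and 0.12 without both libraries numbered 5. KRT8 and KRT18 overlap by 1084 bases on opposite strands, and whether strand was used in counting is not given in the sources used here. GENCODE v44 lists 51 KRT8 and 68 KRT18 pseudogenes, and 22.1% of the 50-base stretches of KRT8 and 21.7% of those of KRT18 recur in another gene, so part of their reads cannot be assigned by sequence alone.

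**Figure D2:**
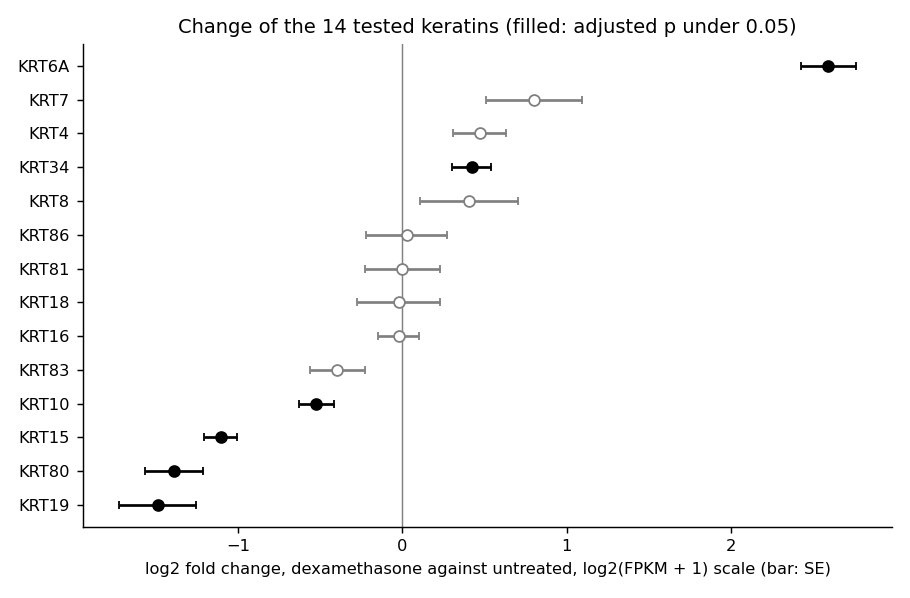
Log2 fold change of the 14 tested keratins, dexamethasone against untreated on the log2(FPKM + 1) scale, as points with SE bars, filled where the limma adjusted p is under 0.05. KRT6A stands at 2.59, KRT15, KRT80 and KRT19 lie between -1.49 and -1.11, and KRT16, KRT18, KRT81 and KRT86 lie near 0.

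Among the other epithelial keratins, KRT80 and KRT10 fell. KRT80 (ENSG00000167767, chromosome 12, 52168996 to 52192000, minus strand), a type II keratin found in many epithelia, was at 54.6, 49.6, 66.1 and 63.3 FPKM in untreated wells 1, 3, 4 and 5. It was at 18.5, 23.9, 24.0 and 20.3 FPKM after dexamethasone. All treated wells were well below all untreated wells, with a log2 fold change of -1.39 (limma, SE 0.176, adjusted p = 0.000379) and a ratio of means of 0.371. KRT80 lies on a long noncoding RNA gene of the opposite strand, LINC00592.

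KRT10 (ENSG00000186395, chromosome 17, 40818117 to 40834700, minus strand), the type I chain of differentiated epidermis, was at 19.9, 19.4, 22.0 and 16.2 FPKM in untreated and 14.3, 13.6, 13.3 and 11.4 FPKM in treated wells. The lowest untreated and the highest treated well were close, yet the groups did not overlap. KRT10 fell by 0.53 on the log2(FPKM + 1) scale (limma, SE 0.107, adjusted p = 0.00551). KRT1, its type II partner in skin, was listed at 0 in all 8 libraries. KRT10-AS1, a long noncoding RNA gene of the opposite strand, overlaps KRT10 by 15600 bases.

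KRT4 (chromosome 12, 52806549 to 52814551), the type II chain of moist layered epithelia, was at 1.97, 0.968, 1.24 and 1.67 FPKM in untreated and 2.77, 2.20, 2.43 and 2.20 FPKM in treated wells. The groups did not overlap, but the log2 fold change of 0.47 did not pass (SE 0.162, 95% interval 0.11 to 0.83, limma adjusted p = 0.0587). It passed at 0.48 with upper-quartile scaling or with no scaling and at 0.66 with the GC trend removed. It also passed without untreated replicate 5, at 0.57, and without both libraries numbered 5, at 0.58. It did not pass when any other single library was left out, at 0.34 to 0.55 (limma adjusted p = 0.0532 to 0.145). With a replicate term in the fit KRT4 passed at 0.47 (limma adjusted p = 0.0165). KRT13, its type I partner, was listed at 0 everywhere. KRT222, a shortened type I family member, was at 0.0437 to 0.408 FPKM and was not tested.

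The hair keratins held both very high and very low genes. KRT81 (ENSG00000205426, chromosome 12, 52285913 to 52291534, minus strand), a type II hair keratin, was among the most abundant transcripts of these cells, at 1309, 1211, 1212 and 1705 FPKM in untreated and 1286, 1288, 1337 and 1493 FPKM in treated wells. Its log2 fold change was 0.00 to 2 decimals, with a 95% interval of -0.51 to 0.51 (limma adjusted p = 1.00). KRT81 ranked 18 to 25 among all genes across the 8 libraries.

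KRT86, its close relative, was at 34.8, 31.7, 31.7 and 50.4 FPKM in untreated and 35, 34.9, 34.1 and 46.1 FPKM in treated wells (log2 fold change 0.03, 95% interval -0.53 to 0.58, limma adjusted p = 0.948). Its value is uncertain as that of a gene of its own. The annotated span of KRT86 covers KRT81 on the opposite strand and overlaps the end of KRT7 on the same strand by 2887 bases, and 32.8% of its 50-base stretches also occur in KRT81. KRT86 stood at 2.55% to 3.09% of the KRT81 level in every library, while its share of the KRT7 level ranged from 1.28% to 3.09%. Neither KRT86 nor KRT81 was called, and these shares cannot tell the sources of the KRT86 reads apart. That source was not tested.

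KRT34 (ENSG00000131737, chromosome 17, 41377650 to 41382403, minus strand), a type I hair keratin, was at 0.338, 0.254, 0.335 and 0.513 FPKM in untreated and 0.985, 0.573, 0.776 and 1.01 FPKM in treated wells. The groups did not overlap, and the ratio of means was 2.32. Without both libraries numbered 5, KRT34 also met the definition of switched on. Its log2 fold change was 0.42 (limma, SE 0.120, adjusted p = 0.0283), and 1.02 with a pseudocount of 0.1, also called. The call was lost without untreated replicate 1, 3 or 4, at 0.41, 0.37 and 0.40, and without dexamethasone replicate 1, 4 or 5, at 0.39, 0.44 and 0.36 (limma adjusted p = 0.0550 to 0.0808). KRT83, a type II hair keratin, was at 0.893, 0.784, 0.966 and 1.59 FPKM in untreated and 0.728, 0.383, 0.484 and 0.663 FPKM in treated wells. Its groups did not overlap, and its log2 fold change of -0.40 did not pass (limma, SE 0.167, adjusted p = 0.108). It was -0.24 without untreated replicate 5, -0.28 without both libraries numbered 5 and -0.14 with the GC trend removed, none of which passed. With a replicate term in the fit KRT83 was called. All 9 root sheath keratins were listed at 0 in every library.

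Over the tested keratins, 9 of 14 had no overlap between the deposited values of the groups, 4 higher and 5 lower, where 31.5% of all tested genes had none. KRT7, KRT4 and KRT83 were the 3 of these that were not called.

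The summed keratin level was 4887, 4909, 5110 and 6929 FPKM in untreated wells 1, 3, 4 and 5 and 6655, 5910, 6268 and 8481 FPKM after dexamethasone. It made up 1.36% to 1.85% of all FPKM in untreated and 1.74% to 2.46% in treated libraries, so the ranges overlapped. KRT7, KRT8, KRT18 and KRT81 supplied nearly all of it, and the remaining keratins together held 4.87% to 5.38% in untreated and 1.79% to 2.32% in treated libraries. The share of type I chains was 21.0%, 19.8%, 19.8% and 21.5% in untreated replicates 1, 3, 4 and 5. It was 13.2%, 16.7%, 15.6% and 13.1% after dexamethasone. Every treated library had a lower type I share than every untreated one. Type II transcripts exceeded type I transcripts 3.65 to 4.06 times in untreated and 4.98 to 6.63 times in treated libraries. The mean type II sum was 4335 FPKM in untreated and 5840 FPKM in treated libraries, and the mean type I sum 1124 and 989 FPKM. For each sum the ranges of the groups overlapped.

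By mean, KRT7 went from 1424 to 2544 FPKM and KRT8 from 1453 to 1878 FPKM, neither passing the test, and KRT19 from 156 to 54.7 FPKM. Ratios between single keratins describe parts of this balance. The level of KRT7 was 8.09 to 11.9 times that of KRT19 in untreated and 34.1 to 62.0 times in treated libraries. KRT18, the other type I chain of simple epithelia, was at 5.59 to 6.64 times the level of KRT19 in untreated and 16.1 to 18.6 times in treated libraries. The ratio of KRT8 to KRT18 was 1.19 to 1.89 in untreated and 1.77 to 2.20 in treated libraries, which overlap. These sums and ratios are descriptions of members already tested one by one and carry no test of their own.

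**Figure D3:**
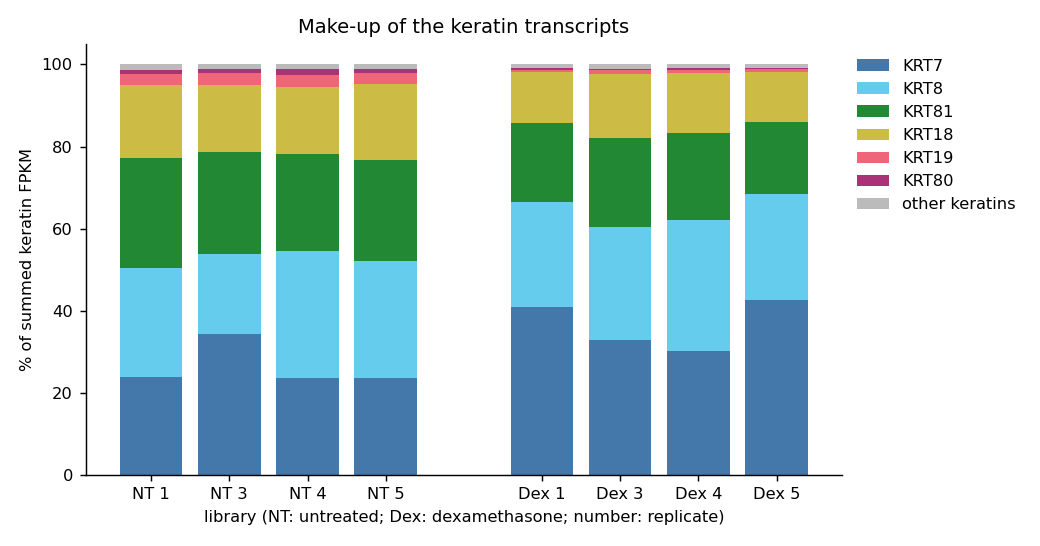
Share of each keratin in the summed keratin FPKM of each library, in percent, for untreated (NT) and dexamethasone (Dex) replicates 1, 3, 4 and 5. KRT7 takes 23.6% to 34.4% of the bar in untreated and 30.2% to 42.5% in treated libraries, and KRT19 shrinks from 2.69% to 2.92% down to 0.661% to 0.936%.

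Keratin genes lie in a pair of clusters. The cluster on chromosome 12, 52168996 to 52952901, held 25 members, 24 of type II and KRT18 of type I, and 9 of them reached 0.5 FPKM in some library. The cluster on chromosome 17, 40654665 to 41624842, held 28 type I members, of which 5 reached 0.5 FPKM. KRT15 and KRT19, which both fell, are direct neighbours on the minus strand, 1087 bases apart. The genes on their outer sides, KRT13 and KRT9, were listed at 0 in all libraries. KRT80 and KRT7 are neighbours as well, 40519 bases apart, and their log2 fold changes were -1.39 and 0.80. KRT6A stood alone in its stretch: KRT6C, 13388 bases away on one side, had a treated mean of 0.0450 FPKM and KRT5, 21317 bases away on the other, one of 0.0917 FPKM. EIF4B, the gene beyond KRT18, was not called.

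**Figure D4:**
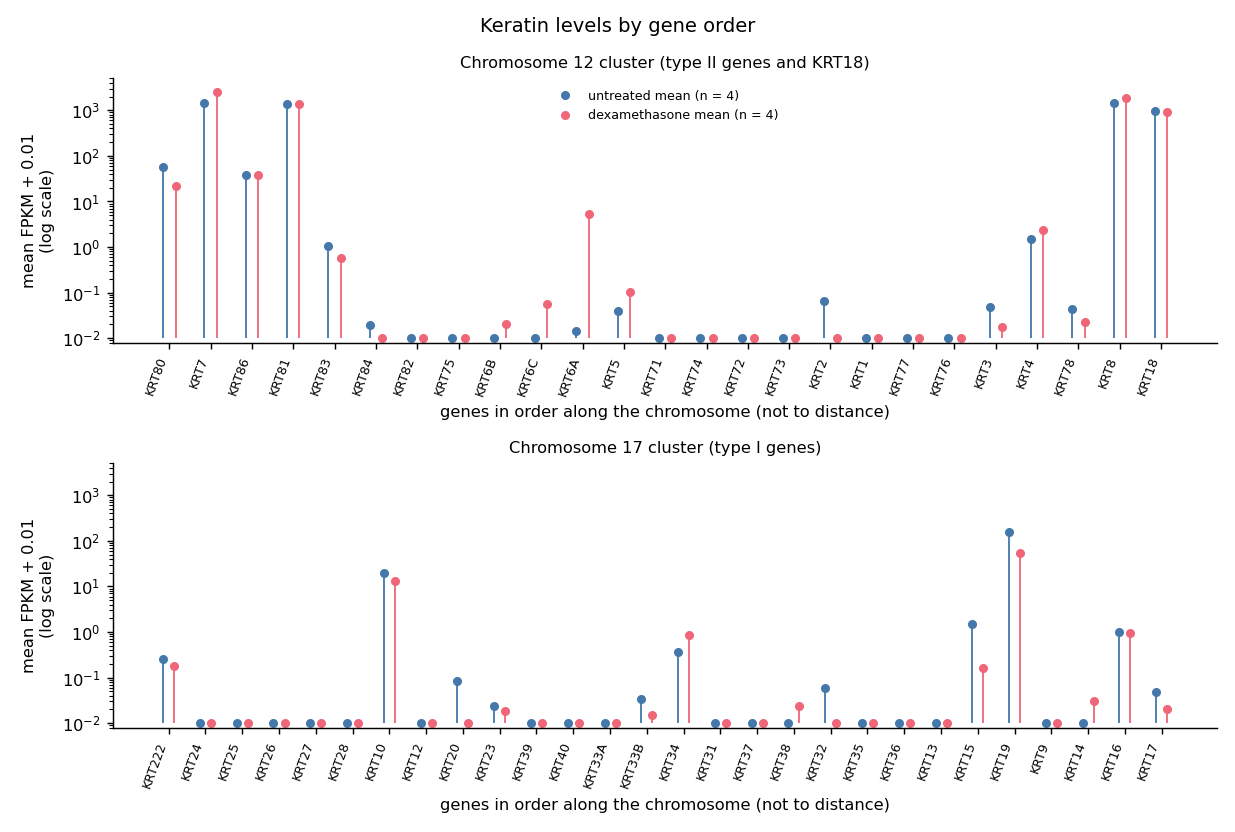
Mean FPKM + 0.01 of every keratin on a log axis, untreated in blue and dexamethasone in red (n = 4 each), with genes in their order along chromosome 12 (top) and chromosome 17 (bottom). The transcribed genes sit at the outer ends of the chromosome 12 cluster, KRT6A rises alone in its middle, and the adjacent KRT15 and KRT19 are lower after dexamethasone.

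Promoters, taken as the 250 bases before the RefSeq start (GRCh38.p14), could be matched by symbol for 32 of the 53 keratins, and for 4 of the 14 tested. The called keratins KRT6A, KRT15, KRT19 and KRT80 had no matched promoter and were not searched. Most of the 32 belong to keratins too low to test, so the shares below do not describe the called keratins. A TATAAA motif on the gene's strand, with its first base 20 to 40 bases before the start, was found in 15 of the 32 (46.9%), against 2.30% of all 35116 promoters. That window was set after the matches had been seen. Searched on both strands anywhere in the 250 bases, TATAAA was in 62.5% of these keratin promoters and 10.7% of all promoters, and CCAAT in 46.9% and 32.0%. AGAACA, an arm of the glucocorticoid receptor motif, was in 12.5% and 12.4%, the AP-1 motif TGANTCA in 0 of the 32 and 6.57%, and GGGCGG in 12.5% and 42.6%. A match is a description of the letters and not a binding site. The promoters of the called keratins KRT10 and KRT34 are shown, 5′ to 3′ on the minus strand, because both carry the TATAAA match near the start. Capitals mark TATAAA and, in KRT10, a CCAAT motif on the other strand. KRT10 is chr17:40822615-40822864 and KRT34 is chr17:41382307-41382556. These RefSeq starts differ from the ends of the gene spans given above. The KRT10 window lies inside its span, and the KRT34 window overlaps the 5′ end of its span.
KRT10: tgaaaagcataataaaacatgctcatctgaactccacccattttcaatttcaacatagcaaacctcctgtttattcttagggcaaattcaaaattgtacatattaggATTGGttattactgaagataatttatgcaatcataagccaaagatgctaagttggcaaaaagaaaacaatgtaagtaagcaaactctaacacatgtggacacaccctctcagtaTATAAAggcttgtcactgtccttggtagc
KRT34: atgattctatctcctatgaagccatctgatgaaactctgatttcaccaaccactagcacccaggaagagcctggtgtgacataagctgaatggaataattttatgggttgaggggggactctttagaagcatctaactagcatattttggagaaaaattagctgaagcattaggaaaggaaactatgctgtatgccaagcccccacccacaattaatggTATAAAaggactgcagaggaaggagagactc
The first base of TATAAA lies 29 bases before the start in KRT10, which fell, and 31 in KRT34, which rose.

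Keratin filaments are anchored at desmosomes through plakins and plakophilins, and part of this group rose. Of 17 such genes in the data, 11 were tested, of which 5 were called higher and 0 lower (12.4% and 14.3% of all tested genes were), with a median log2 fold change of 0.51 against 0.01 over all tested genes. PPL, which encodes periplakin, a linker between keratin filaments and the cell margin, was at 3.66 to 4.30 FPKM in untreated and 48.4 to 53.6 FPKM in treated wells (limma log2 fold change 3.36, SE 0.11, adjusted p = 7.15e-08). PKP2, the plakophilin of simple epithelia and heart, was at 2.53 to 4.39 and 12.8 to 15.6 FPKM (limma log2 fold change 1.69, SE 0.122, adjusted p = 1.15e-05). The other called members, named after their values were seen, were DSP at 0.85, DSG2 at 0.92 and DSC3 at 0.51, a desmoplakin and a pair of desmosomal cadherins. DSG2 lost its call without dexamethasone replicate 1, 3 or 4, at 0.88, 0.88 and 0.89, and with no scaling, at 0.91, and DSC3 with the GC trend removed, at 0.22. JUP, PKP3, PERP, EVPL, PLEC and DST did not pass.

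Of the other intermediate filament genes that were called, most fell. Of 11 tested, 6 were called lower and 1 higher, against 14.3% and 12.4% of all tested genes, with a median log2 fold change of -0.46. IFFO2 was at 13.4 to 15.4 FPKM in untreated and 2.38 to 2.78 FPKM in treated wells (limma log2 fold change -2.09, SE 0.122, adjusted p = 3.06e-06). NES, the nestin of progenitor cells, was at 0.622 to 0.918 and 0.0567 to 0.11 FPKM (limma log2 fold change -0.71, SE 0.0775, adjusted p = 0.000152). The other members that fell, named after their values were seen, were the nuclear lamins LMNB1 and LMNB2, with log2 fold changes of -0.86 and -0.82, the neuronal filament INA at -0.60 and the lens filament BFSP1 at -0.41. BFSP1 was not called once GC trends were taken out (-0.22), or when any 1 library except untreated replicate 5 was omitted (-0.45 to -0.39). NEFL, the light neurofilament chain, was the member that rose, from 0.587 to 1.04 FPKM up to 1.59 to 2.08 FPKM (limma log2 fold change 0.63, SE 0.103, adjusted p = 0.00160). VIM, vimentin, the filament of mesenchymal cells, was at 537 to 648 FPKM in untreated and 368 to 569 FPKM in treated wells, ranges that overlap (limma log2 fold change -0.35, SE 0.183, adjusted p = 0.185).

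**Figure D5:**
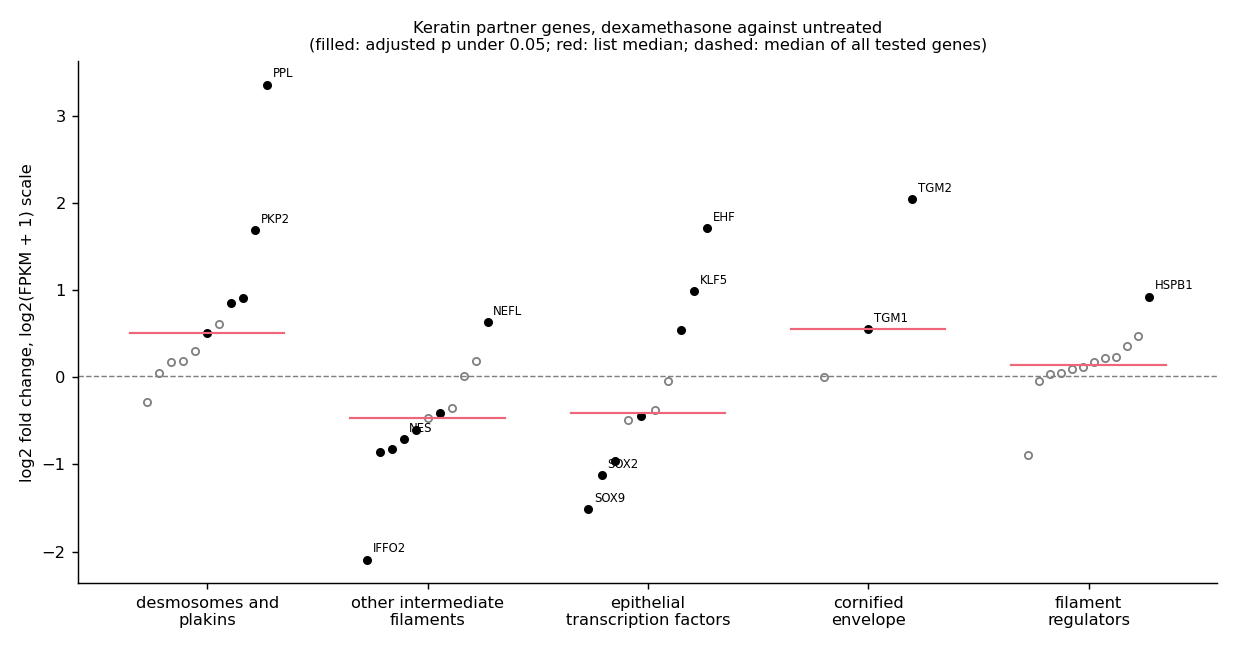
Log2 fold change of every tested gene in 5 lists of keratin partners, on the log2(FPKM + 1) scale, filled where the limma adjusted p is under 0.05, with a red line at the list median and a dashed line at the median of all tested genes, 0.01. PPL stands highest among the desmosome and plakin genes at 3.36 and IFFO2 lowest among the other intermediate filaments at -2.09.

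Transcription factors of epithelial and keratinocyte identity changed in both directions. Of 10 tested, 3 were called higher and 4 lower, where the shares over all tested genes were 12.4% and 14.3%. EHF, an epithelial ETS factor, was at 2.07 to 4.79 FPKM in untreated and 10.5 to 17.9 FPKM in treated wells (limma log2 fold change 1.71, SE 0.191, adjusted p = 0.000186). KLF5, a Kruppel-like factor of epithelia, had a log2 fold change of 0.99 (limma, SE 0.145, adjusted p = 0.000851). SOX9 and SOX2, factors of airway progenitor cells, fell, with log2 fold changes of -1.51 (SE 0.115) and -1.12 (SE 0.0865) and limma adjusted p of 1.56e-05 and 1.62e-05. The other called members, named after their values were seen, were KLF4 at 0.54, TFAP2C at -0.96 and TP63 at -0.44. KLF4 was no longer called with no scaling (0.54) or when untreated replicate 1 (0.54) or dexamethasone replicates 1, 3 or 4 (0.53, 0.51 and 0.47) were omitted. TP63 was not when untreated replicate 3 (-0.36) or dexamethasone replicates 3 or 4 (-0.44 and -0.41) were omitted.

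Genes of the cornified envelope, the protein shell of outer skin cells, were almost all too low to test. Of 22 in the data, 3 were tested and 2 were called, both higher, as were 12.4% of all tested genes. TGM2, a transglutaminase of many tissues rather than of the cornified layer alone, was at 71.8 to 118 FPKM in untreated and 329 to 452 FPKM in treated wells (limma log2 fold change 2.05, SE 0.256, adjusted p = 0.000359). TGM1, the keratinocyte transglutaminase, was at 0.0989 to 0.379 and 0.675 to 1.02 FPKM (limma log2 fold change 0.55, SE 0.0962, adjusted p = 0.00244).

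Of 12 genes that bind or modify keratin filaments, 1 was called, higher, where 12.4% of all tested genes were higher and 26.7% were called in either direction. HSPB1, a small heat shock protein that associates with intermediate filaments, was at 291 to 452 FPKM in untreated and 579 to 803 FPKM in treated wells (limma log2 fold change 0.93, SE 0.257, adjusted p = 0.0250). Its call was lost without untreated replicate 1, 3 or 4, at 0.89, 0.82 and 0.84, and without dexamethasone replicate 3 or 4, at 0.95 and 0.98. These partner lists were described by counts and medians, without a test of the list.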

How the data were processed

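Per the series' design text and the submitters' processing notes, reads of ribosome-depleted RNA were aligned to GRCh38 with STAR 2.7.9a and counted with featureCounts of Subread 2.0.3. Which annotation was used, and whether strand was, is not given in the sources used here. The deposited values are not whole numbers, and they were read as FPKM from their sums and decimals, since the labels call them counts and name no unit. Depth was estimated from the spacing of low FPKM values in single-transcript genes. Only 45.2% to 50.0% of those values lay within 0.1 of a whole fragment (20% by chance), so counts could not be rebuilt. Printed levels are the deposited FPKM, with no counting interval.

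For tests, scaling factors came from a trimmed mean of log ratios (0.3 of the ratios and 0.05 of the levels trimmed on each side). limma 3.58.1 in R 4.3.3 was run with trend and robust on log2(FPKM + 1), two-sided, with the group as its only term. A fold change on this scale understates the change of low genes. Simulated data with known changes served to test the fit. Tested settings were other pseudocounts, filters and scalings, a replicate term, removal of each library's trend on GC content and the omission of libraries. With a library left out, the filter asked for 3 libraries. Strand, overlaps and 50-base matches came from GENCODE v44, in which all 53 keratins were found. The keratins, gene lists and tests were chosen with earlier results of these data known. Keratins that passed the filter or reached 0.1 FPKM were to be named, with the 2 called genes of smallest p per direction of each partner list.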

Additional observations from a re-analysis of the deposited data

Results flagged for a closer look

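In each group of 4 libraries, the highest and the lowest value were set against the other 3 for the keratins that reached 0.1 FPKM and for 4 summary measures. Of 43 such groups, 7 held a library apart from the rest. The limit used gives about 1 in 20 by chance for independent values. These groups share libraries, and 1 value beside 3 zeros always passes the limit, so 7 of 43 cannot be read as an excess. KRT18 was at 1270 FPKM in untreated replicate 5, with the other untreated libraries at 805 to 872 FPKM. KRT86 was at 50.4 FPKM in the same library, with the others at 31.7 to 34.8 FPKM, and at 46.1 FPKM in dexamethasone replicate 5, with the others at 34.1 to 35 FPKM. The keratin sum was 6929 FPKM in untreated replicate 5 and 4887 to 5110 FPKM in the other untreated libraries. The remaining 3 rest on a single low value beside 3 values listed at 0: KRT6A at 0.0171 FPKM in untreated replicate 1, KRT5 at 0.122 FPKM in untreated replicate 5 and KRT6C at 0.180 FPKM in dexamethasone replicate 3.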

How the results depend on the processing

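KRT6A, KRT15, KRT19, KRT80 and KRT10 kept their direction and their call in every setting tried. The number of keratins called was 5 to 9 with 1 library left out, and 11 with the GC trend removed together with the replicate block. The number of all genes called was 2317 to 3876 with 1 library left out, 5514 without both libraries numbered 5, 5747 with the replicate block and 5354 with the GC trend removed and the block. Same-numbered wells did not all deviate together (correlations of 0.29, 0.07, 0.31 and 0.71 for numbers 1, 3, 4 and 5), so the numbers were not taken as pairs; under the block 9 keratins were called, KRT7, KRT4 and KRT83 joining, and not every library correlated best with its own number. As a hint of pairing from the data, the mitochondrial share ranked the 4 numbers alike in both groups. Without both libraries numbered 5, KRT34 joined KRT6A, so that 2 keratins were switched on in place of 1.

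Keratins that changed direction were all near 0. With the GC trend removed, KRT16 was at 0.23, KRT18 at 0.17 and KRT81 at 0.26, and none was called. With the block added the values were the same, KRT81 was called (limma adjusted p = 0.0429), and so were KRT86 at 0.28 (limma adjusted p = 0.0178) and KRT8 at 0.60 (limma adjusted p = 0.00728). Without both libraries numbered 5, KRT16, KRT18 and KRT81 were at 0.04, 0.12 and 0.11. KRT81 was at 0.00 with no scaling and 0.02 with upper-quartile scaling. With 1 library left out, KRT16 ranged from -0.07 to 0.08, KRT18 from -0.13 to 0.20, KRT81 from -0.09 to 0.19 and KRT86 from -0.11 to 0.25. The cause was not tested. Log2 fold changes fell with GC content over all tested genes (a rank correlation of -0.44 over genes, which do not replicate each other), and the tested keratins had 52.1% to 62.3% GC, against a median of 48.2%.

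Partner counts were recomputed under the same settings, a step added after the data were seen. Desmosome and plakin genes called were 8 with the GC trend removed and the block, and cornified envelope genes 1 with the filter at 1 FPKM. Filament regulators called were 3 with the block, 5 with the GC trend removed, 6 with both, 4 without both libraries numbered 5, and 0 to 2 with 1 library left out. The share of type I chains differed by -5.85 percentage points, dexamethasone minus untreated, and ranged from -6.54 to -5.33 with 1 library left out.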

Other observations

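Below the filter, KRT2, KRT32 and KRT20 were present at a trace in at least 3 untreated wells and listed at 0 in all 4 treated wells. KRT84 was listed at 0 in all but untreated replicate 4, where it was at 0.0361 FPKM. In the other direction, KRT38 was listed at 0 in all untreated wells. It was at 0.0306, 0.0082 and 0.0150 FPKM in dexamethasone replicates 3, 4 and 5. KRT2, of the upper epidermis, was at 0.0164 to 0.108 FPKM in the 4 untreated libraries, and KRT32, a hair keratin, at 0.0215 to 0.0791 FPKM. KRT20, of intestinal and urothelial cells, was at 0.0455, 0.130 and 0.120 FPKM in untreated wells 1, 3 and 4 and listed at 0 in well 5. These values correspond to few fragments each and were not tested. At the estimated depth 1 fragment is worth about 0.0142 FPKM for KRT38, so its lowest value above 0 is under 1 fragment. KRT14, KRT6B and KRT6C, described above, were also above 0 in treated wells only.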
